A study of Mus musculus with 4 samples.

Results

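Fibrillins, elastin, fibulins and the microfibril-associated proteins Mfap4 and Mfap5 are the proteins from which elastic fibres are built. The group was taken by name as 10 genes: Fbn1, Fbn2, Eln, Fbln1, Fbln2, Fbln5, Efemp1, Efemp2, Mfap4 and Mfap5. Each gene was represented by the probe set (a group of array probes summarised as 1 signal) that carries its symbol alone and has the highest mean over the 4 arrays. Of the 10 genes, 8 had such a probe set, out of 22180 genes in all. Fbn1 and Efemp2 had 0 and were not analysed here. Each of the other 8 had exactly 1, so the highest mean decided nothing among them. The genes were selected on their names with the values of the arthritic and nonarthritic pools already known, and the values below are given as a description.

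Total RNA of mouse synovium, the tissue that lines the joint, was measured on 4 Affymetrix MoGene 2.0 ST arrays, with 1 pool of mice on each. The arthritic group held 2 pools, each made from 10 mice on day 10, a time labelled as peak inflammation. The nonarthritic group held 2 pools of 3 mice each, labelled day 0. Per the labels' protocols, all were male C57BL/6J mice aged 12 weeks, and tissue was taken around the tibiotalar (ankle) joint. Arthritic mice received 150 microlitres of arthritogenic serum into the peritoneum on days 0, 2 and 7, and nonarthritic mice received buffered saline on the same days. The labels name K/BxN as the serum source strain, and for the nonarthritic pools this conflicts with the saline of the protocol. The day 0 label of the nonarthritic pools also conflicts with injections on days 2 and 7, so when their tissue was taken is not clear. In this transfer model the donor serum carries autoantibodies, and the recipient's own cells carry out the inflammation. Arthritis, labelled day and pool size all differ between the groups and cannot be told apart. The values are log2 signals, so 1 unit is a doubling, and they do not allow the level of one gene to be set against that of another.

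Fibrillins are long glycoproteins that assemble into microfibrils, and elastin is laid down on them and crosslinked into an elastic core. Fibulins and microfibril-associated proteins bind both components and help join them. Microfibrils also hold growth factors of the TGF-beta and BMP families in the matrix. In joints such fibres are known from synovial tissue, ligament, tendon sheath, perichondrium and vessel walls.

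The group split by gene. Arthritic synovium had higher signals than nonarthritic synovium for Fbn2, Mfap4, Fbln2 and Eln. The estimates were 12.8-fold for Fbn2 and 2.35-fold to 4.21-fold for the other 3. Efemp1, which encodes fibulin-3, was 2.46-fold lower. Fbln5, Mfap5 and Fbln1 did not pass the test, which was limma's moderated test across all genes with a Benjamini-Hochberg adjusted p under 0.05. The counts were therefore 4 rises and 1 fall among 8 genes. Of all 22180 genes, 15.3% were called, 8.72% as rises and 6.62% as falls. Since this comparison was known when the genes were chosen, nothing is read from these counts.

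**Figure D1:**
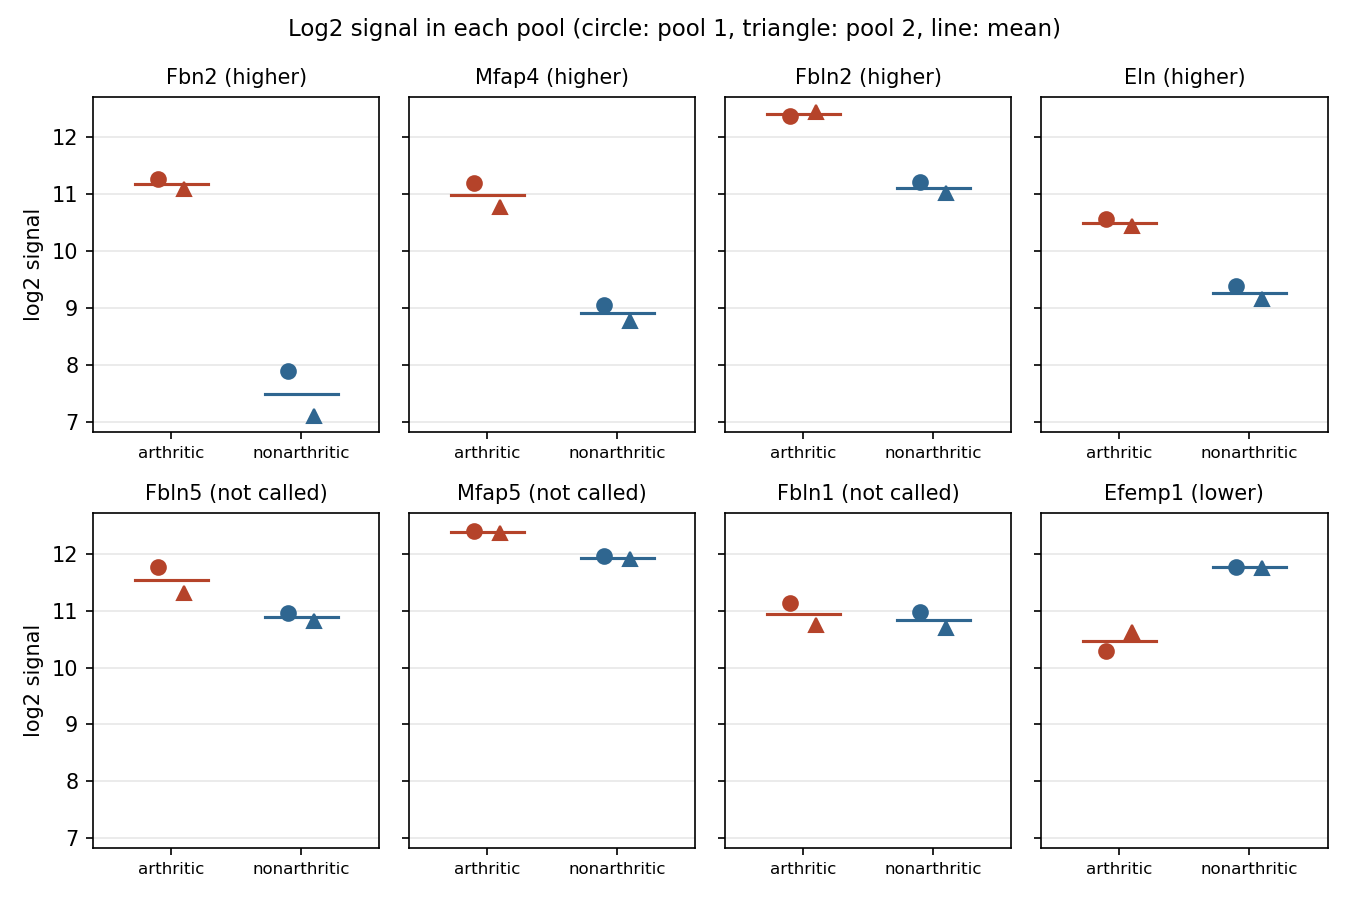
Log2 signal of the 8 measured genes (vertical axis) in arthritic and nonarthritic pools (horizontal axis), with a circle for pool 1, a triangle for pool 2 and a line for the mean of each group. The call at an adjusted p under 0.05 stands beside each name. Fbn2 had the widest gap, with 11.27 and 11.09 in the arthritic pools against 7.90 and 7.10 in the nonarthritic pools, while the groups of Fbln1 overlapped.

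Fbn2 encodes fibrillin-2, the fibrillin known mainly from developing tissue. It read 11.27 and 11.09 in arthritic pools 1 and 2, against 7.90 and 7.10 in nonarthritic pools 1 and 2. The groups stood 3.19 log2 units apart at their nearest pools. The log2 fold change was 3.68 ± 0.26 (SE; limma adjusted p = 0.000178), the 9th highest of the 22180 genes. The nonarthritic pools differed by 0.80, more than the SD of 0.325 of such differences over all genes. Olfactory receptor genes, which joint tissue is not known to use, served as a guide to background. The Fbn2 signal lay above 98.8% of the 1105 such genes on the array of nonarthritic pool 1 and above 92.6% on that of nonarthritic pool 2. The nonarthritic level was thus not shown to be above background, and the estimated fold change may be too low. The 95% confidence interval of the log2 fold change, before any adjustment, ran from 3.09 to 4.27.

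Eln encodes elastin itself, the rubber-like core protein. It read 10.57 and 10.44 in arthritic pools 1 and 2, against 9.39 and 9.16 in nonarthritic pools 1 and 2. Both arthritic pools were above both nonarthritic pools, by at least 1.05. The log2 fold change was 1.23 ± 0.17 (SE; limma adjusted p = 0.0025).

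Mfap4, a fibrinogen-related glycoprotein that binds elastin and fibrillin, read 11.20 and 10.78 in the arthritic pools, against 9.05 and 8.78 in the nonarthritic pools. The groups did not overlap, and pool 1 read higher than pool 2 in each group. Its log2 fold change of 2.08 ± 0.20 (SE; limma adjusted p = 0.000546) was the 109th highest of all genes. Mfap5, also called MAGP-2, is a small microfibril glycoprotein. It read 12.39 and 12.36 in the arthritic pools, against 11.95 and 11.91 in the nonarthritic pools. The pools of each group were within 0.04 of each other and the groups did not overlap, yet the gene did not pass the test (log2 fold change 0.45 ± 0.15 SE, limma adjusted p = 0.0937). The 95% confidence interval of that change, before any adjustment, ran from 0.09 to 0.80.

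Among the fibulins of the 8 genes, 1 rose, 1 fell and 2 did not pass the test. Fbln2 and Efemp1 carry this contrast, and the 250 bases before an annotated start site are shown for both (RefSeq, GRCm38.p6, plus strand). They are chr6:91212514-91212763 for Fbln2 and chr11:28852955-28853204 for Efemp1. Both start sites lie inside the annotated gene. Fbln2 is annotated from 91212460, so its whole window is within the gene. Efemp1 is annotated from 28853154, so the end of its window, with the GC box, is within the gene too. Capitals mark matches to any of 4 motifs, searched on both strands: the TATA box (TATAAA), the CCAAT box (CCAAT), the GC box (GGGCGG) and the AP-1 site (TGANTCA).
Fbln2: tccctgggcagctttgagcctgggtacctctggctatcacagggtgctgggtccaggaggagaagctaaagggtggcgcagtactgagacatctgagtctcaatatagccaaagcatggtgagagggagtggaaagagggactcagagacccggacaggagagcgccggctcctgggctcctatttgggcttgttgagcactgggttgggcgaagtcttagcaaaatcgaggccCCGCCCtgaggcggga
Efemp1: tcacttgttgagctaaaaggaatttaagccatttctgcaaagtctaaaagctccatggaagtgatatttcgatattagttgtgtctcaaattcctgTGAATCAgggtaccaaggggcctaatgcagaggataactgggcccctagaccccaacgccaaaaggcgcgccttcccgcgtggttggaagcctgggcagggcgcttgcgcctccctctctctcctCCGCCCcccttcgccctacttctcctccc
Each window held 1 GC box, read on the minus strand as CCGCCC, and no TATA or CCAAT box. The Efemp1 window also held 1 AP-1 match, TGAATCA, whose first base lies 154 bases before the start site. No match overlapped another. Of all 32851 windows of this length, 32.7% held a GC box and 6.75% an AP-1 match. The table gave windows for 4 of the 8 measured genes, with 2 start sites each for Fbln1 and Fbln5. The upstream start site of Fbln5 had 2 GC boxes and 1 CCAAT box, its other start site had 0 matches, and 1 of the 2 Fbln1 windows had a GC box. Eln, Fbn2, Mfap4 and Mfap5 were not looked at in this way.

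Fbln2 encodes fibulin-2, a large fibulin that binds fibrillin, elastin and fibronectin. It read 12.38 and 12.45 in arthritic pools 1 and 2, against 11.21 and 11.02 in nonarthritic pools 1 and 2. The groups were at least 1.17 apart, several times the gap between pools of either group. Its log2 fold change was 1.30 ± 0.16 (SE; limma adjusted p = 0.00168).

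Efemp1 encodes fibulin-3, a short fibulin made by connective tissue cells that binds the inhibitor Timp3. It was the only gene of the 8 with lower signals in arthritic synovium, at 10.29 and 10.63 in arthritic pools 1 and 2, against 11.77 and 11.75 in nonarthritic pools 1 and 2. The nonarthritic pools nearly coincided, and the arthritic pools differed by 0.34 but both lay at least 1.12 below them. The log2 fold change was -1.30 ± 0.17 (SE; limma adjusted p = 0.00246).

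Fbln5, fibulin-5, binds elastin and lysyl oxidase-like enzymes and is needed for elastic fibres to form in mice. It read 11.77 and 11.31 in the arthritic pools, against 10.95 and 10.82 in the nonarthritic pools. The arthritic pools were both above the nonarthritic pools but stood 0.46 apart, and the log2 fold change of 0.66 ± 0.19 (SE) did not pass (limma adjusted p = 0.0585; 95% interval before adjustment from 0.21 to 1.10). It passed with arrays centred on their medians (adjusted p = 0.0415), with dim genes left out (0.0305) and with a variance prior that follows the mean signal (0.0301). It did not pass with quantile normalization again (adjusted p = 0.0816) or with the pool number as a replicate block (0.0693). Fbln1, fibulin-1, which is found in elastic fibres and basement membranes, read 11.14 and 10.74 in the arthritic pools, against 10.98 and 10.70 in the nonarthritic pools. These ranges overlapped, and the log2 fold change of 0.10 ± 0.20 (SE; limma adjusted p = 0.798) had an interval from -0.35 to 0.55.

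The groups did not overlap for 7 of the 8 genes, against 56.4% of all genes. A difference of at least 2-fold was seen for 5 of the 8, against 6.83% of all genes. The median log2 fold change was 0.94 over the 8 genes and 0.005 over all genes. Over all genes, 1933 rose and 1469 fell. With arrays centred on their medians 2314 rose and 1134 fell.

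With 1 pool left out, so that one group rests on a single array assumed to vary like the other group, the signs of all 8 genes but Fbln1 stayed as they were and some calls were lost. Fbn2 lost its call without arthritic pool 2 (log2 fold change 3.77, limma adjusted p = 0.0552), and Mfap4 without nonarthritic pool 2 (1.94, adjusted p = 0.052). Fbln2 lost it without arthritic pool 1 (adjusted p = 0.0552), without arthritic pool 2 (0.0783) and without nonarthritic pool 2 (0.0623). Eln lost it without the same pools (adjusted p = 0.0704, 0.0799 and 0.0746). Efemp1 lost it without any one pool, with adjusted p between 0.0522 and 0.0808 and a log2 fold change between -1.47 and -1.13. Calls over all genes fell at the same time, to between 152 and 1221, against 3402 with all 4 pools.

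**Figure D2:**
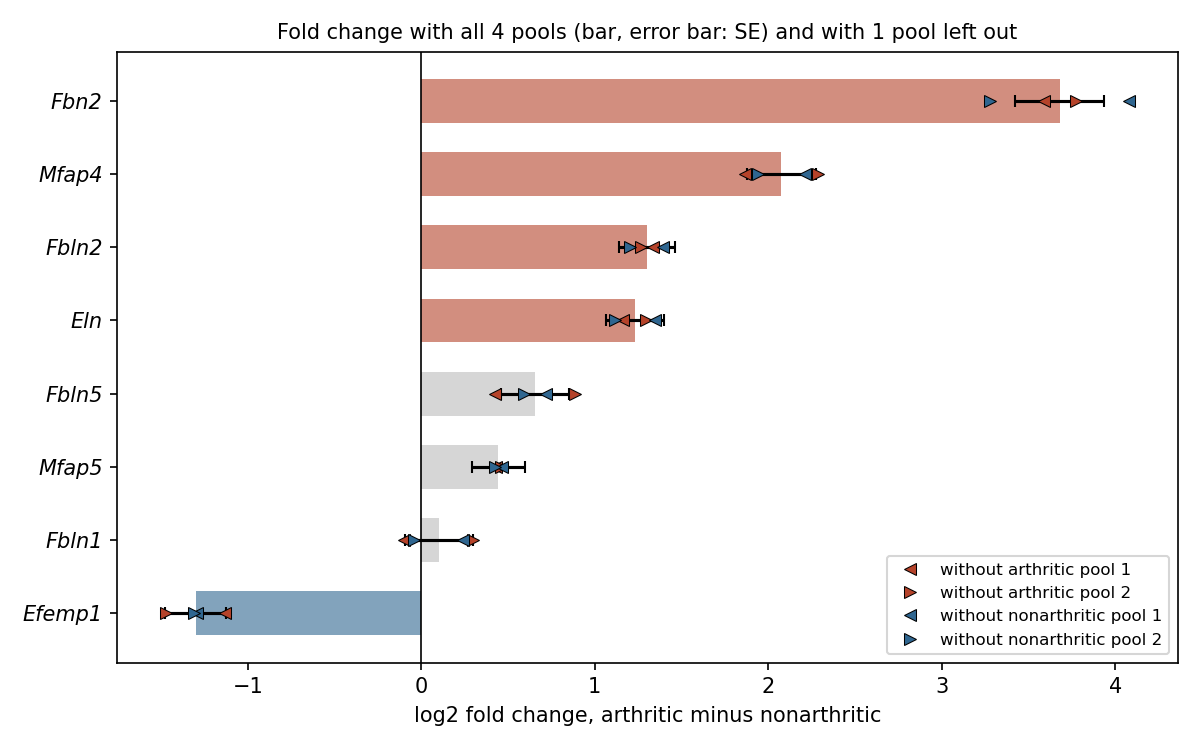
Log2 fold change, arthritic minus nonarthritic (horizontal axis), of the 8 genes, as bars with the SE from limma for all 4 pools and as triangles with 1 pool left out. Bars are red for a rise, blue for a fall and grey for no call. Fbn2 ran from 3.28 to 4.08 with 1 pool left out and Efemp1 from -1.47 to -1.13, while Fbln1 lay on both sides of 0.

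The other genes of elastic fibres were described in 6 lists of 68 genes, of which 65 were measured (Mfap1a, Hmcn2 and Loxl2 were not analysed here). Of the 65, 12 rose (18.5%) and 7 fell (10.8%), with a median log2 fold change of 0.22. Without arthritic pool 1, arthritic pool 2, nonarthritic pool 1 and nonarthritic pool 2 in turn, 3, 0, 6 and 2 of them rose and 5, 1, 1 and 1 fell. Among 20 further microfibril and elastic fibre proteins, 4 rose and 2 fell (median 0.39). Fbln7, a fibulin outside the group of 8, was at -0.78 and the related Hmcn1 at 0.78 on the log2 scale. Neither passed (limma adjusted p = 0.132 and 0.0958). Emilin1, which sits between the elastin core and the microfibrils, read 10.89 and 10.96 in the arthritic pools, against 9.06 and 8.61 in the nonarthritic pools. Its log2 fold change was 2.09 ± 0.19 (SE; limma adjusted p = 0.000468), and the groups were far apart.

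The latent TGF-beta binding proteins, which resemble fibrillins, moved both ways. Ltbp2, which binds fibrillin microfibrils, read 10.92 and 11.69 in the arthritic pools, against 9.98 and 9.83 in the nonarthritic pools (log2 fold change 1.40 ± 0.25 SE, limma adjusted p = 0.0083). Ltbp1 rose by 0.71 ± 0.15 (SE; adjusted p = 0.0183). Ltbp4, which works with fibulins in elastin assembly, read 11.09 and 10.39 in the arthritic pools, against 11.96 and 11.95 in the nonarthritic pools, a fold change of -1.22 ± 0.23 (SE; adjusted p = 0.0114). Ltbp3 was at 0.44 and did not pass (adjusted p = 0.129). The strongest fall of the list was that of Tnxb, tenascin X, a protein of collagen and elastic fibre networks, at 9.58 and 9.09 in the arthritic pools, against 11.75 and 11.69 in the nonarthritic pools (log2 fold change -2.39 ± 0.20 SE, adjusted p = 0.00035). Mfap2, the microfibril glycoprotein MAGP-1, read 12.64 and 11.67 in the arthritic pools, against 11.30 and 10.86 in the nonarthritic pools. The arthritic pools of Mfap2 were almost 1 unit apart, and its fold change of 1.08 ± 0.31 (SE) did not pass (adjusted p = 0.0518). The fourth rise of the list was that of the proteoglycan versican, Vcan (0.64), which is outside the naming rule and is named because its value was seen.

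Of 5 crosslinking enzyme genes, 2 rose and 0 fell (median 0.54). Lox and Loxl1, which encode the main enzymes that crosslink elastin, did not pass, at 0.50 ± 0.16 and 0.54 ± 0.18 on the log2 scale (SE; limma adjusted p = 0.0722 and 0.081). For both, the 2 arthritic pools were above the 2 nonarthritic pools. Loxl4 went the other way, at 8.27 and 8.34 in the arthritic pools, against 8.93 and 8.75 in the nonarthritic pools. Its log2 fold change of -0.535 ± 0.16 (SE) did not pass either (limma adjusted p = 0.0605). Loxl3, a related oxidase, rose by 1.05 ± 0.15 (SE; adjusted p = 0.00363), and Atp7a, the copper pump that supplies these enzymes, by 0.69 ± 0.17 (SE; adjusted p = 0.0295).

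Of 10 genes for ADAMTS and ADAMTS-like proteins, several of which bind fibrillin, 2 rose and 0 fell (median -0.13). Adamtsl1 rose by 1.18 ± 0.19 and Adamts17 by 0.92 ± 0.17 on the log2 scale (SE; limma adjusted p = 0.00513 and 0.0113). Among 12 proteases that cut elastin, 3 rose and 1 fell (median 0.20). Mmp14, a membrane-bound metalloproteinase, read 13.11 and 12.88 in the arthritic pools, against 11.79 and 11.29 in the nonarthritic pools (log2 fold change 1.46 ± 0.21 SE, adjusted p = 0.00304). The cathepsin Ctsk rose by 0.67 (adjusted p = 0.0396) and the gelatinase Mmp9 by 3.84 (adjusted p = 0.000357). Mmp12, macrophage elastase, read 6.82 and 7.03 in the arthritic pools, against 7.44 and 8.03 in the nonarthritic pools (-0.81 ± 0.22 SE, adjusted p = 0.0427). The arthritic values of Mmp12 lie near the 95th percentile of olfactory receptor genes, which was 6.77 and 6.94 on those arrays, so this fall may be understated.

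Of 9 growth factor genes whose products microfibrils can hold, 0 rose and 2 fell (median -0.24). Bmp4 read 9.08 and 7.72 in the arthritic pools, against 10.68 and 10.78 in the nonarthritic pools (log2 fold change -2.33 ± 0.37 SE, limma adjusted p = 0.00534). Its arthritic pools were 1.36 apart but both lay below the nonarthritic pools. Bmp2 fell by 1.16 ± 0.25 on the log2 scale (SE; adjusted p = 0.0178). Tgfb1, Tgfb2 and Tgfb3 were at 0.21, -0.24 and 0.48 and did not pass. Among 9 receptor genes, 1 rose and 2 fell (median 0.18): the fibronectin receptor chain Itga5 rose by 1.12 ± 0.18, and Itga8 (-1.09 ± 0.30), whose product binds matrix proteins that carry an RGD site, and Itgb8 (-0.85 ± 0.16), whose product takes part in TGF-beta release, fell (SE; adjusted p = 0.00598, 0.044 and 0.0119).

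**Figure D3:**
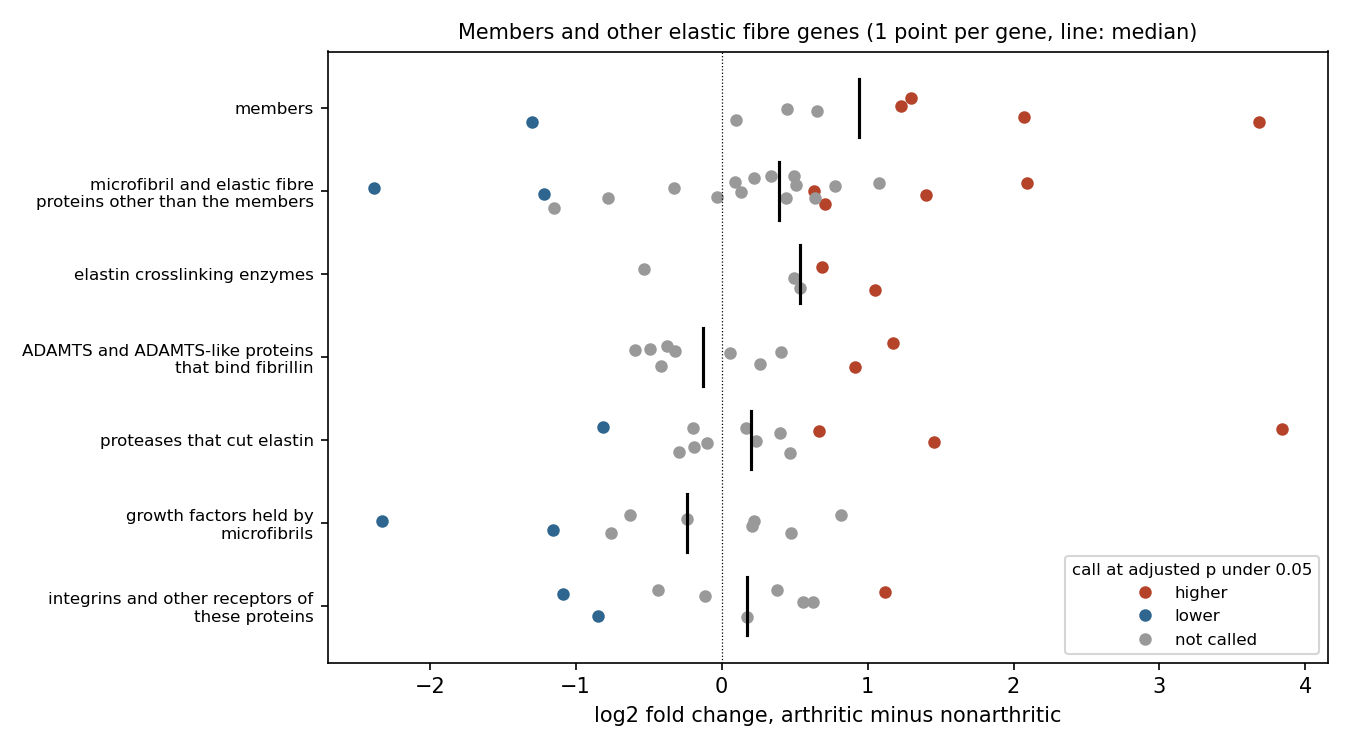
Log2 fold change, arthritic minus nonarthritic (horizontal axis), of the 8 genes, given as members, and of 6 lists of other elastic fibre genes, with 1 point per gene, a black line at each median and colour for the call. Medians ran from -0.24 for growth factors to 0.94 for the 8 genes, and points lay on both sides of 0 in every row.

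The genes whose values over the 4 arrays ran most like those of Fbn2 and Efemp1, the members with the highest and the lowest fold change, were found by the root mean square distance after each gene was centred on its own mean. With 4 arrays in 2 groups this mostly matches the size of the group difference. Nearest to Fbn2 were the interleukin-36 gene Il1f9 (distance 0.07 log2 units), the tenascin gene Tnn (0.15), Mmp9 (0.16), the chemokine receptor gene Cxcr2 (0.22) and the calpain-family gene Capn6 (0.22). Il1f9 read 6.25 and 5.55 in the nonarthritic pools, below the 95th percentile of olfactory receptor genes on those arrays (6.86 and 7.36), so its distance to Fbn2 sets side by side 2 differences that background may limit. Tnn, which encodes a tenascin of bone and tendon linings, read 11.81 and 11.77 in the arthritic pools, against 8.85 and 7.88 in the nonarthritic pools. Nearest to Efemp1 were Mir505 (0.02), the potassium channel gene Kcnc2 (0.04), Bmp3 (0.05), Selenbp1 (0.05) and Thrsp (0.06), which takes part in fat synthesis. Thrsp read 6.76 and 7.16 in the arthritic pools, against 8.37 and 8.36 in the nonarthritic pools. Its lower arthritic value lay below that percentile of its array. So did both arthritic values of Kcnc2 (5.53 and 5.95) and its value in nonarthritic pool 2 (7.01). Background may thus set much of the Kcnc2 pattern, and the distances of these 2 genes to Efemp1, which is bright in every pool, are not exact.

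Markers of cell types in and around the joint also moved between the groups. Prg4, the lubricin gene that defines the synovial lining, was bright in every pool: it read 13.27 and 13.52 in the arthritic pools, against 13.66 in both nonarthritic pools. Its log2 fold change of -0.265 did not pass, but 3 of the 5 lining markers fell, most of all Clic5 (-2.48) and Htra4 (-1.885). Of 7 fibroblast markers 4 rose, and their mean log2 signal was 12.30 and 12.26 in the arthritic pools, against 11.94 and 11.80 in the nonarthritic pools. Chondrocyte markers rose in 3 of 5 cases, with means of 10.42 and 9.92 in arthritic synovium, against 9.10 and 8.96 in nonarthritic synovium. One of these markers, Matn3, lay below the 95th percentile of olfactory receptor genes in the nonarthritic pools (6.57 and 6.26), so its rise and the gap between the list's means may be understated. Tendon markers also rose in 3 of 5 cases, with means of 11.26 and 10.85 in arthritic synovium, against 10.33 and 9.89 in nonarthritic synovium. Leukocyte markers rose in 4 of 5 cases, and their means were 11.69 and 11.84 in arthritic synovium, against 10.83 and 10.56 in nonarthritic synovium.

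Other marker lists had falls or few calls. All 5 skeletal muscle markers fell, with means of 9.15 and 8.57 in the arthritic pools, against 11.57 and 11.95 in the nonarthritic pools. All 5 adipocyte markers fell, with means of 8.44 and 8.03 in arthritic synovium, against 10.94 and 10.80 in nonarthritic synovium, and the arthritic means of 2 of them, Adipoq and Lep, lay below the 95th percentile of olfactory receptor genes. Of 6 markers of vascular smooth muscle and pericytes, 2 fell and 0 rose. Their means were 11.24 and 10.76 in the arthritic pools, against 11.49 and 11.61 in the nonarthritic pools. The list did not move as one: Pdgfrb read 12.51 and 12.23 in the arthritic pools, against 11.82 and 11.74 in the nonarthritic pools. Its log2 fold change of 0.59 did not pass (limma adjusted p = 0.0523). Lining markers fell in 3 of 5 cases, with means of 10.70 and 10.39 in arthritic synovium, against 11.91 and 11.83 in nonarthritic synovium. Of 5 endothelial markers 1 rose, and of 4 epidermal markers 0 passed the test. In bulk tissue, fewer cells of a type and less RNA per cell cannot be told apart, and the part of cell makeup in the changes of the 8 genes was not tested.

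**Figure D4:**
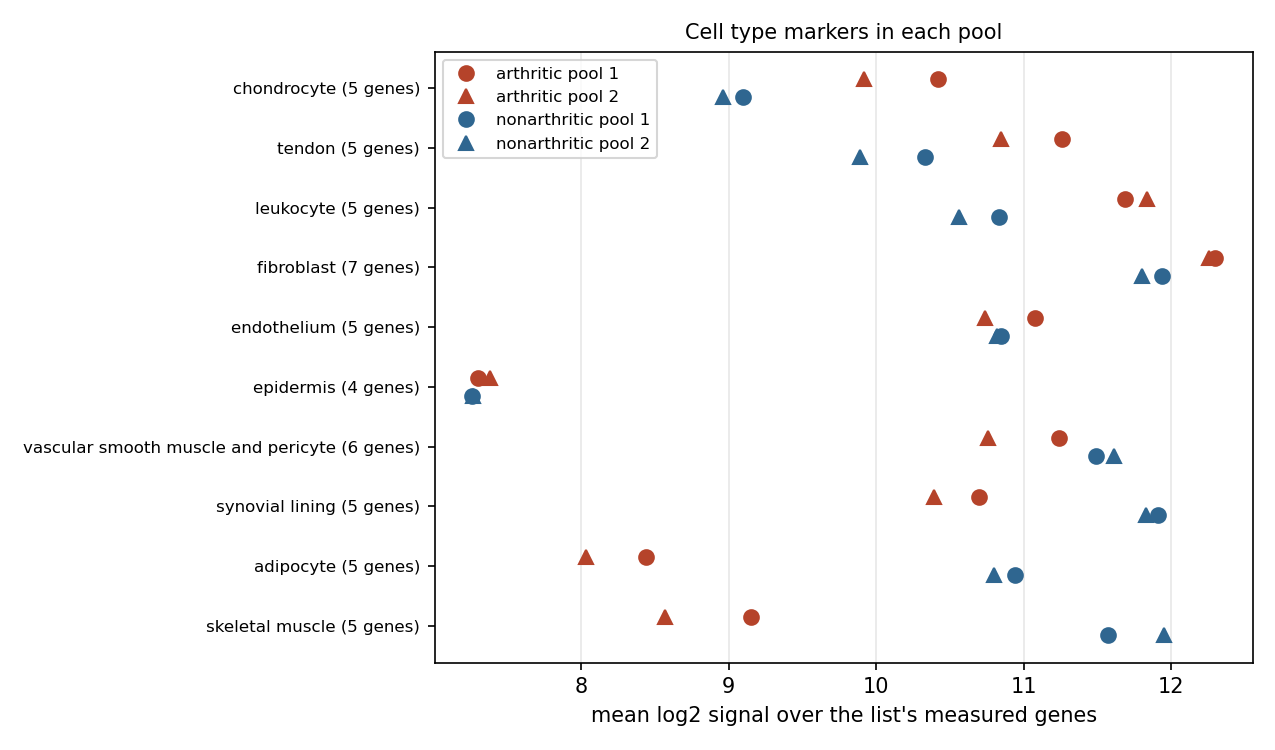
Mean log2 signal (horizontal axis) of 10 lists of cell type markers in each pool, red for arthritic and blue for nonarthritic, with circles for pool 1 and triangles for pool 2. Skeletal muscle markers averaged 9.15 and 8.57 in the arthritic pools, against 11.57 and 11.95 in the nonarthritic pools, and fibroblast markers 12.30 and 12.26 in the arthritic pools, against 11.94 and 11.80 in the nonarthritic pools.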

How the data were processed

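The deposited table holds log2 signals with 2 decimals for each probe set on each array. The authors used RMA (background correction, normalization between arrays and a summary per probe set), Affymetrix Power Tools and Affymetrix Expression Console, per the submitters' processing notes; their settings and versions are not given there. That the scale is log2 was inferred from values between 2.89 and 14.27 with array medians of 6.96 to 7.15. Detection calls were not used, so low signals cannot be told from background, and the number of arrays limits the precision.

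Of 41345 probe sets, 23521 had 1 symbol in the platform table, 1814 had several and 16010 had none. The rule for probe sets left 22180 genes, and the gene numbers of 21994 were found in RefSeq. Groups were compared with limma 3.58.1 in R 4.3.3 (lmFit and eBayes, 2-sided, no block, no filter, Benjamini-Hochberg over all genes), with 2 residual and 5.98 prior degrees of freedom, and the fit was tested on simulated data. Tables and figures were made in Python 3.11.15.

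Pools are called biological replicates in the design text. Each p-value sets a group difference against the spread between pools, not between mice. Most of the weight of that spread came from all genes, with 5.98 prior against 2 residual degrees of freedom. Members and lists were chosen with earlier results of these data known. Named genes were the members, up to 3 rises and 3 falls per elastic fibre list with Lox, Loxl1, Ltbp2, Ltbp4, Mfap2 and Emilin1 whatever their values, up to 2 called markers per cell type, and the 5 genes most alike in pattern to each of 2 members. Most markers are given as list means instead. Tgfb1, Tgfb2, Tgfb3, Ltbp3, Fbln7, Hmcn1, Loxl4, Prg4, Pdgfrb, Adipoq and Lep were added after their values were seen. Alternatives were a replicate block, median centring, quantile normalization again, the mean of a gene's probe sets, a dim-gene filter, a trended prior and leaving out each pool.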

Additional observations from a re-analysis of the deposited data

How the results depend on the processing

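The counts of 4 rising and 1 falling member held with quantile normalization again. With median centring or the dim-gene filter 5 members rose, and with the trended prior, which called Fbln5 and Mfap5, 6 rose. Averaging probe sets could not move a member's fold change, since each measured member had only 1, so it does not test these counts. With each pool left out in turn, 1 to 4 members rose and 0 fell, 0 to 6 of the other elastic fibre genes rose and 1 to 5 fell, and 152 to 1221 of all genes were called. Fbln1, which was not called, ran from -0.10 without arthritic pool 1 to 0.30 without arthritic pool 2, and was -0.04 without nonarthritic pool 2. These fits have fewer samples. Of the other elastic fibre genes 20 rose with the trended prior, against 12, and 12 fell with the dim-gene filter, which tested 13804 genes, against 7. The cause was not tested for the prior.

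The pools share numbers 1 and 2, but nothing says that a number marks a shared batch. The deviations of same-numbered pools from their group means had a correlation of 0.176 across genes. With the pool number as a replicate block, 4 members rose and 1 fell, as without it, and 10 of the other elastic fibre genes rose and 5 fell. Over all genes the replicate block gave 2243 calls, against 3402. Signals near or in the background range limit the folds of Fbn2, Mmp12, Il1f9, Kcnc2, Thrsp, Matn3, Adipoq and Lep.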

Other observations

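Within the nonarthritic group the members leaned one way: all 8 read higher in pool 1 than in pool 2, by 0.02 for Efemp1 to 0.80 for Fbn2. Of the 65 other elastic fibre genes 52 did so, and of all genes 11950 of 22180 (53.9%). The arrays of these 2 pools also differed at the dim end. The median of olfactory receptor genes was 4.68 on the array of nonarthritic pool 1 and 5.15 on that of nonarthritic pool 2. The share over all genes includes such dim genes, so it is not a like comparison for the 8 members. In the arthritic group 6 of the 8 members read higher in pool 1 than in pool 2, and Fbln2 and Efemp1 read lower, by 0.07 and 0.34. Of the other elastic fibre genes 41 of 65 read higher in arthritic pool 1, and of all genes 10848 of 22180. Genes of one array share its RNA and its normalization, so these counts describe the pools and carry no test.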
